A study of Mus musculus with 2 samples.

Results

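The Mir26 family of mouse consists here of 3 genes, Mir26b, Mir26a-1 and Mir26a-2, taken by their Ensembl identifiers from a count table of 1973 annotated miRNA genes. Each lies inside a gene of the Ctdsp phosphatase family. The counts come from 2 microRNA sequencing libraries of the embryonic facial prominences, the tissue that forms the upper and lower face, at 13.5 days of development. Both libraries form a single group of healthy embryos of strain B6NCrl, with male and female embryos pooled and no treatment, so the data give levels and their spread and no contrast of conditions. The labels call the libraries biological replicates 1 and 2 and do not say whether they came from separate litters, and RNA below 30 bases was sequenced.

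A microRNA gene is transcribed as a hairpin, which Drosha and Dicer cut to a mature strand from either arm (5p or 3p). The mature strand guides Argonaute to messenger RNAs, mainly through its seed, bases 2 to 8, and lowers their translation and stability. MiR-26 is known for repressing the histone methyltransferase gene Ezh2 and the BMP mediator gene Smad1. Its host genes encode small phosphatases that act on the C-terminal domain of RNA polymerase II and serve as cofactors of REST, a silencer of neuronal genes outside neurons. MiR-26 is known to repress its own host Ctdsp2 during neuronal differentiation.

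All 3 genes carry the same seed in the 5p arm, and no other gene of the RefSeq miRNA table (GRCm38.p6) had it. The mature forms are shown because the comparison of the genes turns on which of them share a form. Capitals mark the seed.
miR-26b-5p of Mir26b: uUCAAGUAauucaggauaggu
miR-26a-5p of Mir26a-1: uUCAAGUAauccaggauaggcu
miR-26a-5p of Mir26a-2: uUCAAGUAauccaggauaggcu

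The 5p forms of Mir26a-1 and Mir26a-2 were identical. MiR-26b-5p, with 21 bases, differed from the 22-base miR-26a-5p at 2 of the 21 positions compared, U11C and U21C, counted from 1 at the 5′ end with the base of miR-26b-5p first. Both differences lie outside the seed. The 3p arms differed in all 3 genes, and capitals again mark bases 2 to 8.
miR-26b-3p: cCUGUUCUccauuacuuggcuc
miR-26a-1-3p: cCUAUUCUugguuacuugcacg
miR-26a-2-3p: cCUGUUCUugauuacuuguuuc

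The 3p arms of Mir26a-1 and Mir26a-2 differed at 6 of 22 positions, including A4G within bases 2 to 8, with the base of miR-26a-1-3p first. The 3p arm of Mir26b differed from that of Mir26a-2 at 4 positions and from that of Mir26a-1 at 8. Mir26b and Mir26a-2 thus had the same bases 2 to 8 in the 3p arm, which 4 genes of the table carry, while those of Mir26a-1 were found in no other gene.

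The hairpins show how much of each gene could give a read that also matches another hairpin. Capitals mark runs of at least 18 bases found in another hairpin of the table, on the same strand.
Mir26b hairpin: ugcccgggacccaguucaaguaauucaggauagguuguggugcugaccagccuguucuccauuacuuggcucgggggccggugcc
Mir26a-1 hairpin: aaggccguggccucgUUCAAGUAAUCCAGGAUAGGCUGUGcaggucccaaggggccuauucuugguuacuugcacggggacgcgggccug
Mir26a-2 hairpin: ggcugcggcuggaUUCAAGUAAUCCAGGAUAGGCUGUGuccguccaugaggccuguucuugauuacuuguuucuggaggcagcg

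The Mir26a-1 and Mir26a-2 hairpins had 25 bases in common, which begin at the first base of miR-26a-5p and run 3 bases past its end. A 5p read of either gene within that run matches both genes, whereas a read that reaches past the run at either end separates them. Of all windows of 22 bases, 4 of 69 in Mir26a-1 and 4 of 63 in Mir26a-2 were shared. In Mir26b, 0 of 64 were, and its longest run in common with any other hairpin was 11 bases, with Mir26a-1. The comparison covers the 1005 hairpins of the table and not the genome.

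**Figure D1:**
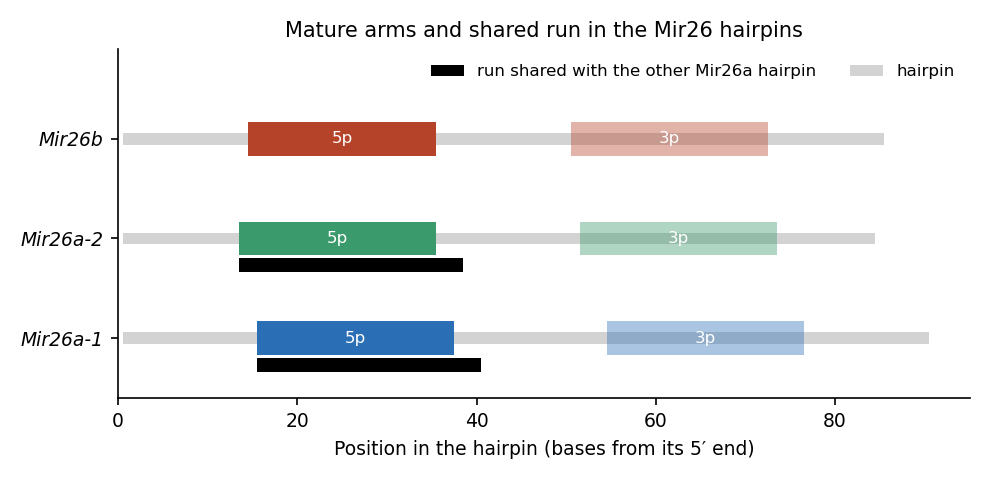
The 3 hairpins drawn to scale by position in bases from the 5′ end, with the 5p and 3p mature arms as coloured boxes and the run shared by the 2 Mir26a hairpins as a black bar. The bar of 25 bases covers the whole 5p arm of Mir26a-1 and Mir26a-2 and none of the 3p arm, and Mir26b has no bar.

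The hairpins measured 85 bases in Mir26b, 90 in Mir26a-1 and 84 in Mir26a-2, with 58.8%, 60.0% and 53.6% G and C. Their predicted folding energies (RNAfold) were -43.5, -49.4 and -44.5 kcal per mol, with 77.6%, 75.6% and 76.2% of bases paired.

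All 3 genes lie on the plus strand of GRCm38 (mm10) and are transcribed in the direction of their hosts. Mir26b (ENSMUSG00000065468) spans 74394310 to 74394394 of chromosome 1, in intron 4 of the 7-exon principal transcript of Ctdsp1. Mir26a-1 (ENSMUSG00000065513) spans 119031796 to 119031885 of chromosome 9, in intron 5 of the 8-exon principal transcript of Ctdspl. Mir26a-2 (ENSMUSG00000065430) spans 126995530 to 126995613 of chromosome 10, in intron 5 of the 8-exon principal transcript of Ctdsp2. In each host the hairpin was followed by 3 exons.

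The introns differed more than that shared position, at 0.564 kb in Ctdsp1, 3.28 kb in Ctdspl and 1.95 kb in Ctdsp2. The hairpin began 2.80 kb from the start of the transcript in Ctdsp1, 105 kb in Ctdspl and 16.8 kb in Ctdsp2. For Mir26a-2 the intronic place held in 1 of 4 annotated Ctdsp2 transcripts. In GENCODE release M21, 2 shorter Ctdsp2 transcripts start at 126995613, the last base of the hairpin, so that 1 base of it is exonic there, outside coding sequence. No member overlapped another miRNA gene. The nearest was Mir546, 2.83 kb from Mir26a-2, with 1 count in replicate 1 and 5 in replicate 2. Near Mir26b it was Mir1928, at 188 kb, and near Mir26a-1 it was Gm22008, at 1032 kb, both without a count.

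**Figure D2:**
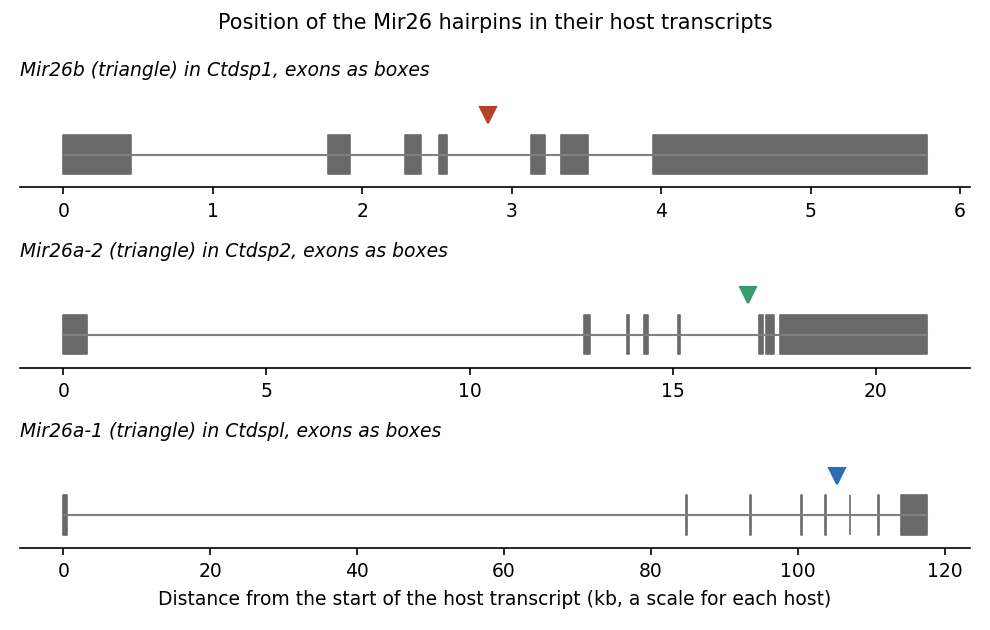
Exons (boxes) of the principal transcript of each host by distance from its start in kb, with a scale of its own for each host, and the place of the hairpin (triangle). Each triangle lies in the intron before the last 3 exons, 2.80, 16.8 and 105 kb from the start in Ctdsp1, Ctdsp2 and Ctdspl.

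Mir26b was among the most abundant miRNA genes of the tissue, and both Mir26a genes had few uniquely placed reads. Levels are given in CPM, the counts of a gene per 1000000 counts of all miRNA genes on their own strand, which totalled 4562135 in replicate 1 and 5771249 in replicate 2. These counts leave out reads placed at several loci, which the files hold only as a total, at 30.7% and 31.0% of all reads. Neither count tells the 5p from the 3p arm. As the samples are whole tissue, fewer cells with a miRNA and less of it in each cell cannot be told apart. Markers of the tissue were present. Those of epithelium (Mir203, Mir205, Mir200b and Mir429) summed to 55235 and 53846 CPM. Those of mesenchyme and cartilage (Mir140, Mir214 and the Mir199a genes) summed to 45689 and 47616 CPM, nearly all of it from Mir140 and Mir214. Mir199a-1 stood at 20.8 and 27.7 CPM and Mir199a-2 at 240 and 289 CPM. Each Mir199a gene shares a mature sequence with a further gene, so its counts can leave out reads placed at several loci. Mir126a of endothelium stood at 25810 and 23871 CPM.

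Mir26b had 127861 counts in replicate 1 and 178819 in replicate 2. These were 28027 CPM (95% Wilson interval 27876 to 28178) and 30984 CPM (30843 to 31126), or 29506 ± 2092 CPM (SD, n = 2). It held 2.95 ± 0.209% of all counts and ranked 10 in both libraries. Among the 138 tested genes in introns of protein-coding genes it ranked 4.

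Mir26a-2 had 184 counts in replicate 1 and 260 in replicate 2. These were 40.3 CPM (34.9 to 46.6) and 45.1 CPM (39.9 to 50.9), or 42.7 ± 3.34 CPM (SD, n = 2). It ranked 236 of the 360 genes with at least 10 counts in both libraries, the genes called tested here.

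Mir26a-1 had 26 counts in replicate 1 and 88 in replicate 2. These were 5.70 CPM (3.89 to 8.35) and 15.2 CPM (12.4 to 18.8), or 10.5 ± 6.75 CPM (SD, n = 2). It ranked 291 among the tested genes. Every member exceeded the floor of 3 counts, the upper limit for a gene with a count of 0 (0.658 CPM in the first library, 0.520 CPM in the other). Intervals and floors cover counting error only and not the spread between samples. PCR copies were not marked, and their part in that error was not tested. None of the 3 had a count on the opposite strand in either library.

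**Figure D3:**
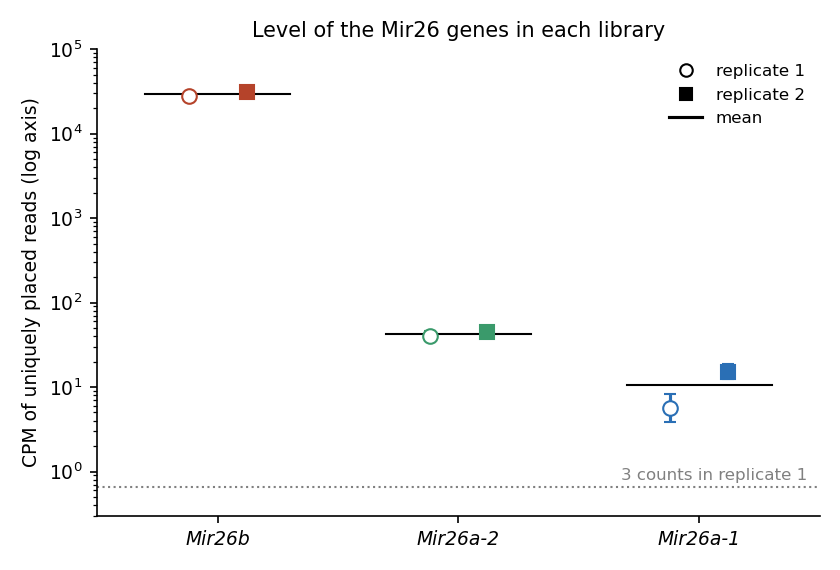
CPM of uniquely placed reads on a log axis for each gene in replicate 1 (open circles) and replicate 2 (squares), with 95% Wilson intervals of counting error as error bars, the mean of both as a line and the CPM of 3 counts in replicate 1 as a dotted line. Mir26b lies near 29506 CPM, Mir26a-2 near 42.7 CPM and Mir26a-1 between 5.70 and 15.2 CPM, with no overlap between genes.

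The order of the genes was the same in both libraries, Mir26b above Mir26a-2 above Mir26a-1, and their ranges did not overlap. Mir26b exceeded Mir26a-2 in uniquely placed counts by 695-fold in replicate 1 (exact 95% interval of counting error 601 to 807) and by 688-fold in replicate 2 (609 to 780). This ratio was thus nearly equal in both libraries. Mir26b exceeded Mir26a-1 by 4918-fold in replicate 1 (3356 to 7529) and by 2032-fold in replicate 2 (1649 to 2534), intervals that do not overlap. Per base of hairpin these became 5207-fold and 2152-fold. Against the sum of both Mir26a genes, Mir26b was higher by 609-fold (532 to 700) and 514-fold (463 to 572), and it held 99.8% of the family's counts in each library.

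Between the Mir26a genes, which encode one 5p form, Mir26a-2 exceeded Mir26a-1 by 7.08-fold in replicate 1 (4.68 to 11.1) and by 2.95-fold in replicate 2 (2.31 to 3.81) in uniquely placed counts. With 2 libraries no permutation test over samples can pass a threshold, so these ratios carry no p-value. Reads of the shared 25 bases cannot be placed at 1 Mir26a gene, and how much of these differences comes from them was not tested. Mir26b exceeded the Mir26a genes together by 127651 counts in replicate 1 and 178471 in replicate 2, numbers equal to 4.02% and 4.40% of the reads placed at several loci. The files do not say which miRNAs those reads belong to.

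The Mir26a genes were placed among all genes that share a mature sequence with a further gene of the table. The tested genes of this kind, both Mir26a genes included, numbered 45, with a median of 57.7 CPM and a range of 3.92 to 3983 CPM. Of these, 7 lay below Mir26a-1 and 19, with Mir26a-1 among them, below Mir26a-2. The 282 tested genes whose mature sequences the table gives to no further gene had a median of 134 CPM and reached 65548 CPM. Over all genes of the files the order of the medians was the opposite, at 4.18 CPM for 87 sharing genes and 0.456 CPM for 829 others, so no order between the kinds is read from them. The longest run in common with another hairpin is a lower limit where the partner has no hairpin in the table. Mir125b-2 had none there, and the run of Mir125b-1 was 14 bases. Among the 44 tested sharing genes with a hairpin in the table, the longest run had a median of 25.0 bases, the length found in Mir26a. Another 4 genes had a run of that length: Mir450-1 at 19.8 CPM, Mir19b-1 at 15.9 CPM, Mir450-2 at 13.4 CPM and Mir19b-2 at 4.18 CPM. Mir26a-2 stood above all 4 in mean level and Mir26a-1 above 1 of them. Runs of nearly the same length went with levels of uniquely placed reads both low and high. The 26 genes within 2 bases of that length, both Mir26a genes included, ranged from 3.92 to 1721 CPM. Their median was 42.5 CPM, close to the level of Mir26a-2. These levels do not separate expression from reads lost to several loci, and the part of the shared run in them was not tested.

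Other seed families also hold both genes with a mature form of their own (single-locus) and genes that share one (multi-locus). The kind follows the RefSeq table, so a gene whose partner is missing there counts as single-locus. Mirlet7a-1 counted as single-locus by its let-7 seed, while Mirlet7a-2, a tested gene, was not among the genes compared. Over all genes of the files, 19 such families could be compared by the mean log2 CPM of their single-locus members minus that of their multi-locus members. These levels leave out reads placed at several loci, which a shared mature form can give, so the measure can favour single-locus members. How much of any difference comes from this was not tested. The difference was 10.52 in the Mir26 family, the largest of the 19. In the other 18 it ran from -8.00, in the family of Mir7002 and the Mir218 genes, to 7.32, in that of Mir149, and 14 of them were above 0. Some of their members had no count. With tested members alone, a restriction chosen after the values were seen, 11 families remained for comparison. The Mir26 difference was again the largest of these, and the other 10 ran from -1.03, in the Mir25 and Mir92 family, to 6.96, in the Mir103 and Mir107 family. By the highest member of each kind, also chosen after the values were seen, Mir26 stood at 9.43 and was number 1 of the 11 families, but number 3 of the 19. These are descriptions of 2 libraries, and families that share genes, such as those of the let-7 arms, are not independent.

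**Figure D4:**
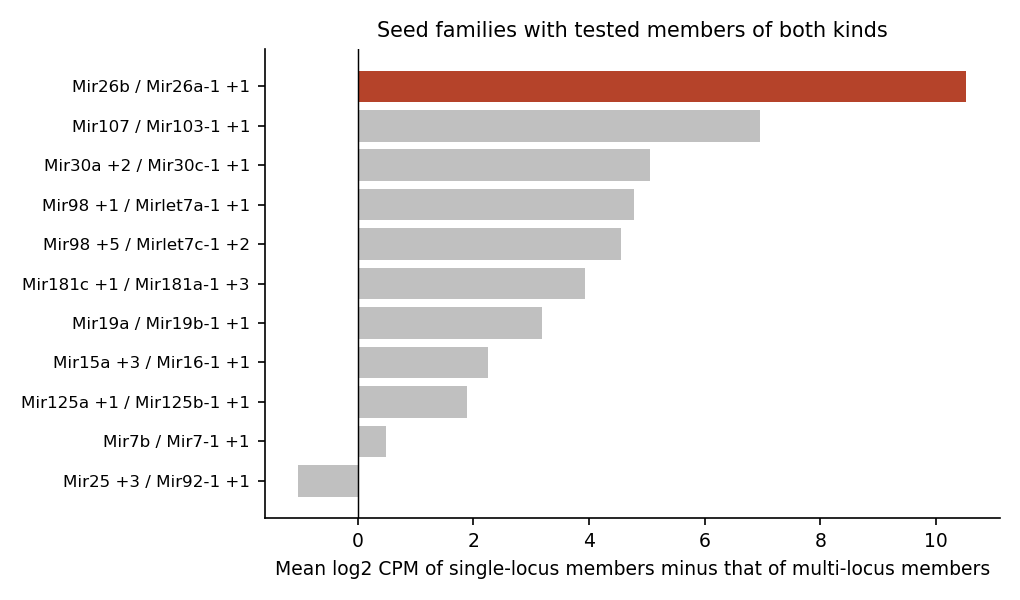
Mean log2 CPM of uniquely placed reads of single-locus members minus that of multi-locus members in 11 seed families with tested members of both kinds. Labels give the first gene of each kind and the number of others. The Mir26 family (red) stands at 10.52 and the other 10 between -1.03 and 6.96.

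By likeness of log2 CPM over both libraries (Euclidean distance), the genes nearest to Mir26b were Mir130a (distance 0.23), Mir100 (0.28) and Mir214 (0.34), of which Mir130a and Mir214 also stood next to it in the order of means, at 33083 ± 2498 and 25707 ± 1581 CPM. Neither of these 2 overlapped Mir26b in range. Nearest to Mir26a-2 were Mir29c (0.09), Mir6540 (0.24) and Mir196b (0.24). Nearest to Mir26a-1 were Gm23450 (0.49), Mir499 (0.58) and Mir150 (0.64). The neighbours of Mir26a-2 in the order of means, Mir144 at 45.0 ± 28.0 CPM and Mir128-2 at 42.4 ± 20.0 CPM, overlapped it in range. Those of Mir26a-1, Mir3061 at 11.3 ± 2.37 CPM and Mir3081 at 10.1 ± 1.26 CPM, did too.

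Between the libraries, Mir26a-1 moved more than the other members. An exact binomial test of each gene's counts given their sum, after TMM scaling and Benjamini-Hochberg adjustment over all 360 tested genes, sets the libraries against counting error and says nothing of conditions. It called 55.0% of the genes, and 27.8% of them as higher in replicate 2, so a call alone is not particular to a gene. Mir26a-1 was higher in replicate 2 by 2.67-fold (log2 1.42, adjusted p = 8.57e-06, exact binomial test). Mir26b was higher there by 1.11-fold (log2 0.14, adjusted p = 1.89e-163, exact binomial test), a small difference resolved by its depth. Mir26a-2 stood 1.12-fold higher there and did not pass (log2 0.16, adjusted p = 0.360, exact binomial test).

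Of the 360 tested genes, 3 differed by more than Mir26a-1 in either direction. All 3 were lower in replicate 2: Mir10a (log2 -2.10), Mir219a-2 (-1.88) and Mir5619 (-1.60). By the same measure, 247 genes differed by more than Mir26b and 229 by more than Mir26a-2. Few counts widen such ratios, so Mir26a-1 was also set beside the 61 tested genes, itself included, whose mean count lay within 2-fold of its own mean of 57.0. Their median absolute log2 ratio was 0.36, 16 of them passed the test and 1 differed by more than Mir26a-1. The markers of the tissue named above all passed the exact binomial test between the libraries. In epithelium, Mir203 (log2 -0.51) and Mir205 (-0.13) were lower in replicate 2, and Mir200b (0.59) and Mir429 (0.46) were higher. In mesenchyme and cartilage, Mir214 (-0.13) was lower there and 3 genes were higher, Mir140 (0.29) among them. Mir126a of endothelium was lower there (-0.11). Some markers of other cell types also differed between the libraries. Those of red blood cells (Mir451a and Mir144, both higher in replicate 2 by the same test) summed to 91.0 CPM in replicate 1 and 151 CPM in replicate 2, and Mir122 of liver stood at 49.5 and 109 CPM. Mir122 also passed that test. Those of skeletal muscle (Mir206 and Mir133b) summed to 583 and 325 CPM, of which Mir206 passed, lower in replicate 2, and Mir133b did not (log2 -0.25). Mir223 of white blood cells stood at 383 and 363 CPM and did not pass. Of 4 neuronal markers (Mir124a-1, Mir124a-2, Mir124a-3 and Mir9-2), 3 were at 0 and Mir124a-2 had 1 count in each library. The Mir124a and Mir9 genes are repeated in the genome, so these counts leave out reads placed at several loci. Whether neurons were present cannot be read from them. The part of these cell types in the difference of Mir26a-1 was not tested.

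**Figure D5:**
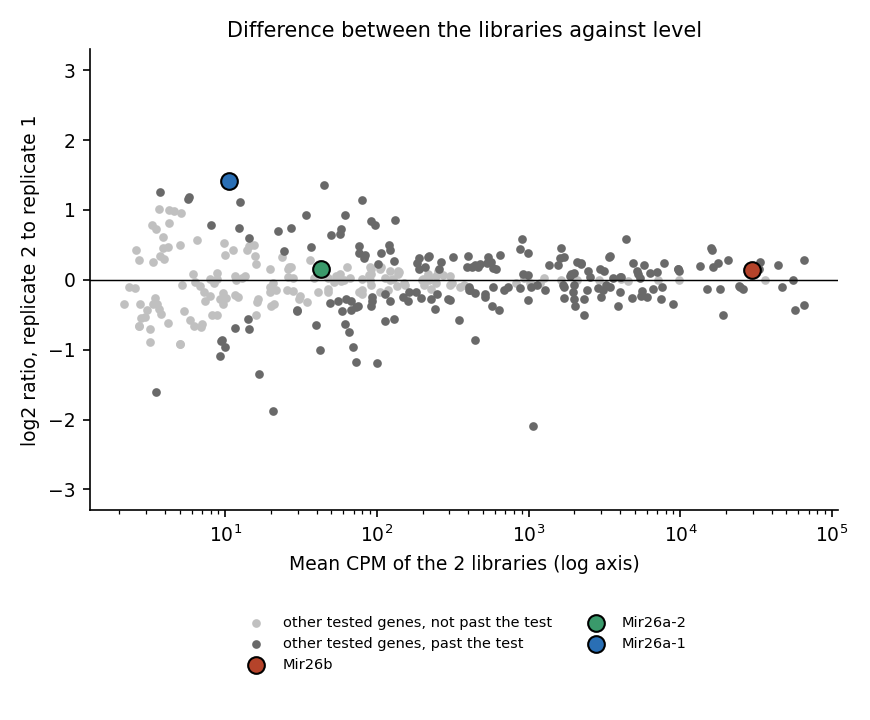
Log2 ratio of replicate 2 to replicate 1 against mean CPM (log axis) for 360 tested genes, with genes past the exact binomial test in dark grey, the others in light grey and the Mir26 genes coloured. Mir26a-1 lies at 1.42, above all other tested genes, while Mir26b at 0.14 and Mir26a-2 at 0.16 lie near 0.

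Since the host phosphatases are cofactors of REST, miRNA genes that REST is known to silence outside neurons were read as a list of 8 genes of the Mir124a, Mir9, Mir132 and Mir212 group. Of these, 7 were in the files, 3 had no count and 3 were tested. In either direction, 0 of the 3 tested genes passed the exact binomial test between libraries, against 55.0% of all tested genes. Their median log2 ratio was 0.13, against -0.01 over all tested genes. Mir212 (54 and 92 counts) and Mir9-3 (39 and 31 counts) had few counts. Of the 61 tested genes within 2-fold of a mean count of 57.0, 16 passed. With 3 genes and 2 libraries of 1 group, these values are not read as a trait of the list and do not bear on REST. Mir132 stood at 131 and 143 CPM, Mir212 at 11.8 and 15.9 CPM and Mir9-3 at 8.55 and 5.37 CPM. The Mir124a genes had at most 1 uniquely placed count in a library. The Mir124a and Mir9 genes are repeated in the genome, so their counts leave out reads placed at several loci.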

How the data were processed

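The authors deposited whole-number read counts per miRNA gene for 2 libraries, with mm10 and annotation M4 named in their description files. The sources used here give neither the aligner nor its settings. By the file layout, the 3 columns are strand-blind counts, same-strand counts and opposite-strand counts. The same-strand column was used, and read classes of no gene stayed out of totals. Gene totals were 4562135 and 5771249 counts, 44.1% of the reads of each file.

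Positions came from GENCODE release M21 (GRCm38), matched by identifier for 1894 of 1973 genes, and sequences from RefSeq (GRCm38.p6), matched by symbol for 869 genes, all 3 members included. A hairpin counted as exonic when an exon held no fewer of its bases than lay outside it. Log2 levels used a pseudocount of 0.5 reads. Scaling was by TMM in edgeR 4.0.16 (R 4.3.3), and tests and intervals were from SciPy 1.17.1. Hairpins were folded with RNAfold 2.7.2. The binomial test was tested on simulated data. Over tested genes the libraries differed beyond counting noise (chi-square 79766 on 359 degrees of freedom), so they were kept as 2 replicates. Any p-value sets the difference between these 2 libraries against counting error only and does not measure the spread between biological samples.

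Named genes were the members, the 3 genes nearest to each by log2 CPM, fixed lists and the seed families with the lowest and highest difference. The 4 genes that share a run of 25 bases and the neighbours by mean level were added after their values were seen. Members and lists were chosen with earlier results of these data known. Levels and tests were also computed with the strand-blind column, with TMM or total scaling, with size factors of DESeq2 1.42.0, with all reads as the base, with a total that omits the most abundant gene, with minimum counts of 1 and 100, with a pseudocount of 5 and without each library.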

Additional observations from a re-analysis of the deposited data

Results flagged for a closer look

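Reads placed at several loci lie outside the analysed counts and exceed the floor of 3 counts, at 3179149 reads in replicate 1 and 4058237 in replicate 2. No gene is attached to them, and the part of them that is miR-26a-5p was not tested.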

How the results depend on the processing

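Of 69 values recomputed under an alternative, 64 kept their direction and call or moved by less than 1 SD between libraries. Part of this count was built in. With 2 libraries, leaving 1 out always moves a mean level, mean log2 ratio or family difference by less than 1 SD. Ratios between members could not change in the strand-blind column, as no member had an opposite-strand count. The level of Mir26a-1 per 1000000 reads of any kind counted as unmoved only through its SD of 6.75 CPM. The 64 is therefore not a measure of stability. Per 1000000 reads of any kind, Mir26b stood at 13008, Mir26a-2 at 18.8 and Mir26a-1 at 4.62, each under its CPM by more than 2-fold. Leaving out either library put the rank of Mir26a-2 among tested genes at 233 to 237. Mir26a-1 moved further, to rank 276 without replicate 1 and 321 without replicate 2. The Mir26 family difference was 9.43 by the highest member of each kind, over all genes and over tested genes alike, an alternative chosen after seeing the data. Without replicate 1 or replicate 2, Mir26a-1 stood at 15.2 or 5.70 CPM. At a minimum count of 100 Mir26a-1 was not tested. Mir26a-1 rests on 26 and 88 counts, and its ratio to Mir26b differed between the libraries beyond counting error. No paired analysis was possible because there is 1 group.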
